A study of Mus musculus with 10 samples.

Results

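The Notch pathway of endothelial cells was followed here through 10 genes in bEnd.3 cells. They were the receptors *Notch1*, *Notch2* and *Notch4*, the ligands *Dll4*, *Jag1* and *Jag2*, the DNA-binding factor *Rbpj*, and the target genes *Hes1*, *Hey1* and *Nrarp*. The genes were chosen by name, with earlier results of these data known, and all 10 had a row among the 27024 rows with a gene name in the expression table. The study of these samples had already reported *Hes1* among the genes lower after StcE, along with *Tie1* and *Acvrl1*, which appear further below. bEnd.3 is a single immortalised line of mouse brain endothelial cells, labelled wild type. The comparison was between 5 samples given an equal volume of saline and 5 samples given 5 nM StcE, a bacterial mucinase that cuts glycoproteins with mucin domains, both collected after 16 h. Saline samples carried the replicate numbers 1, 2, 3, 4 and 5 and StcE samples 1, 2, 3, 5 and 6. No sample with an inactive form of the enzyme was among the 10. The labels do not say whether replicates were separate cultures, so p-values measure the spread between these samples, which may be technical.

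Notch receptors are single-pass membrane proteins that are switched on by Delta-like or Jagged ligands on a neighbouring cell. Binding exposes the receptor to the sheddase ADAM10 and then to gamma-secretase, which frees the intracellular domain to enter the nucleus, join RBPJ and Mastermind-like coactivators, and turn on genes of the HES and HEY families and *Nrarp*. In endothelium the pathway is known for setting arterial identity and for the choice between tip and stalk cells in a sprout. DLL4 is its main endothelial ligand, and NOTCH4 is a receptor largely restricted to endothelium.

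Expression is given as FPKM, in which fragments are divided by the length of the gene and by a measure of sequencing depth. Levels can thus be compared roughly between genes. The length follows all annotated exons of a gene joined together and not 1 transcript, which limits such comparisons. Recovered fragments per sample ranged from 21922594 to 29017310 with saline and from 21864604 to 33147402 with StcE, and 3 fragments on a gene of 1 kilobase corresponded to an FPKM of 0.0857 to 0.131. Differences are given on log2(FPKM + 1), StcE minus saline, a scale that understates the change of low genes, and a gene was called when its Benjamini-Hochberg adjusted p from limma was under 0.05. A filter on low genes (mean FPKM of 1 or more) left 11062, of which 6.41% were called lower and 5.52% higher. The groups did not overlap for 5.80% that were lower and 4.85% that were higher. Markers of other brain cells were near 0: the summed FPKM of 6 microglia and leukocyte markers was 0.0370 to 0.109, and that of 6 neuron and oligodendrocyte markers was 0.139 to 0.317. *Gja1*, also expressed by endothelium, made up nearly all of the astrocyte list (24.4 FPKM with saline, 25.1 with StcE), while *Acta2* led the mural list, at 3.08 and 3.19, and *Notch3*, the receptor of mural cells, was at 0.168 and 0.139. The 8 endothelial markers summed to 1517.5 to 1656 FPKM with saline and 1435 to 1530.6 with StcE, and 4 of them were called lower and 0 higher. Their part in the results below was not tested, and in bulk RNA fewer cells of a type and less RNA per cell cannot be told apart.

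All 10 genes passed the filter on low values. After StcE *Dll4*, *Jag2*, *Hes1* and *Hey1* fell and *Rbpj* rose, while *Notch1*, *Notch2*, *Notch4*, *Jag1* and *Nrarp* did not pass the threshold. The 4 lower calls compare with 6.41% of all tested genes called lower, and the 1 higher call with 5.52%. The groups did not overlap for the same 4 lower genes and for 0 in the other direction, beside 5.80% and 4.85% of all tested genes. The median log2 difference of the 10 was -0.07, against -0.00066 over all tested genes, and 7 of the 10 were below 0.

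**Figure D1:**
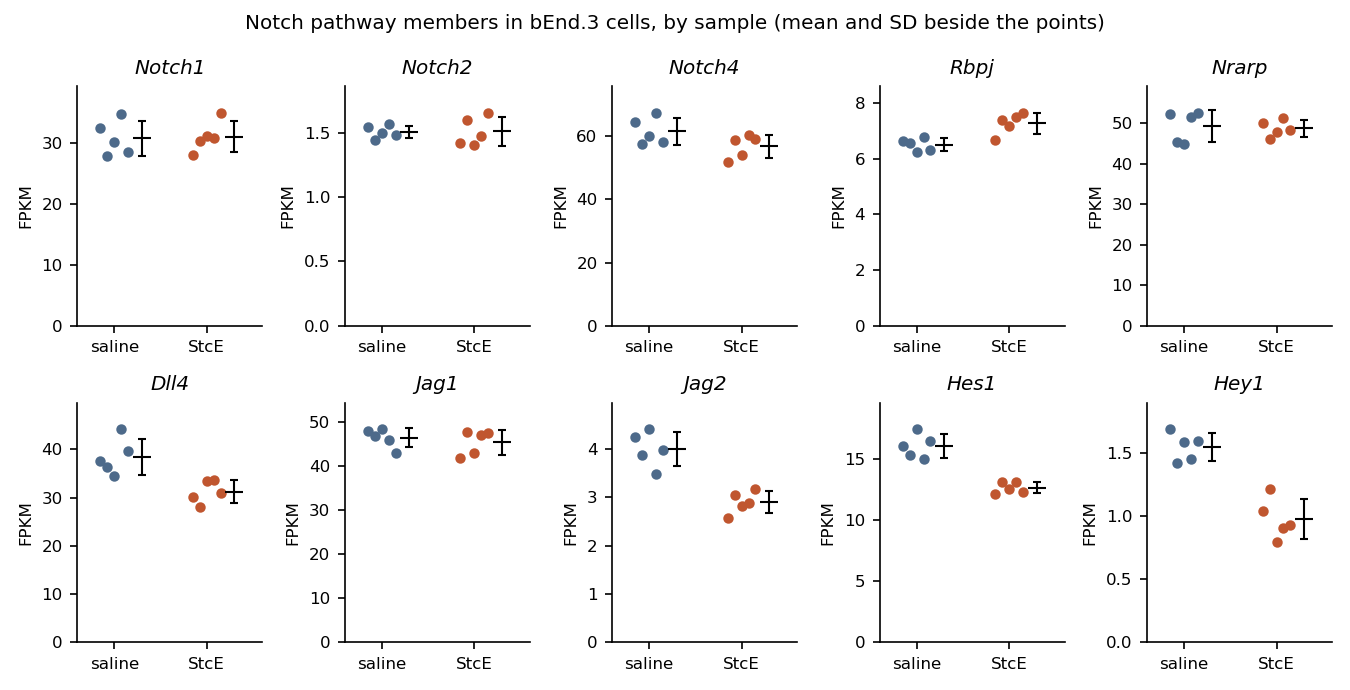
FPKM of each of the 10 Notch pathway genes (vertical axes from 0, a scale of its own per gene) in the 5 saline samples (blue) and the 5 StcE samples (orange), with the mean and SD beside the points. The StcE points of *Dll4*, *Jag2*, *Hes1* and *Hey1* all lie under the saline points, those of *Rbpj* overlap by 1 sample of each group, and the groups overlap for the other 5 genes.

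With saline, the receptor *Notch4* had the highest level of the 10, at 61.6 FPKM, apart from all others. *Nrarp* (49.3), *Jag1* (46.3), *Dll4* (38.4) and *Notch1* (30.8) followed, and the sample ranges of each neighbouring pair among these overlapped. *Hes1* (16.0), *Rbpj* (6.50) and *Jag2* (4.0) each stood apart from the next, and *Hey1* (1.55) and *Notch2* (1.51) overlapped at the foot. After StcE the order changed in 1 place, where *Hey1*, at 0.980, lay under *Notch2* (1.51) with no overlap. *Dll4*, at 31.2 FPKM, kept its place above *Notch1* (31.1), which it still overlapped, but no longer overlapped *Jag1* (45.3).

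Among the receptors, *Notch1*, the most broadly used receptor of the family, had nearly equal means in both conditions. It had 32.5, 27.9, 30.2, 34.8 and 28.6 FPKM in saline replicates 1 to 5 and 28.1, 30.3, 31.2, 30.8 and 35.0 in StcE replicates 1, 2, 3, 5 and 6. Each group held 1 sample near 35, and the ranges covered each other almost wholly. The means were 30.8 ± 2.83 and 31.1 ± 2.50 (SD, n = 5 each), a log2 difference of 0.01 (standard error 0.0650, 95% interval -0.13 to 0.16, limma adjusted p = 0.921). *Notch1* lies on chromosome 2, 26457903 to 26516663, on the reverse strand of GRCm38, and 10.4% of its exon length overlaps genes on the other strand.

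*Notch4* (chromosome 17, 34564268 to 34588503, forward strand) had 64.6, 57.4, 60.2, 67.5 and 58.3 FPKM with saline and 51.9, 58.7, 54.2, 60.4 and 59.0 with StcE. Saline replicates 1 and 4 were above every StcE sample and StcE replicates 1 and 3 were below every saline sample, but the other samples mixed. The mean went from 61.6 ± 4.30 to 56.8 ± 3.63 FPKM, with a log2 difference of -0.11 (standard error 0.0526, 95% interval -0.23 to 0.00) and a limma adjusted p of 0.188. *Notch2* (chromosome 3, 98013527 to 98150361, forward strand) was the least expressed receptor of the 3, at 1.44 to 1.56 FPKM with saline and 1.40 to 1.65 with StcE, from 359 to 557 fragments per sample. Its means were both 1.51, with a 95% interval of the log2 difference from -0.10 to 0.10 (limma adjusted p = 0.992). Within a sample, the ratio of *Notch4* to *Notch1* was 1.94 to 2.05 with saline and 1.69 to 1.96 with StcE, so that the groups overlapped. This ratio was chosen after the values were seen.

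The ligands did not move together. *Dll4* (chromosome 2, 119325784 to 119335962, forward strand) had 37.6, 36.4, 34.4, 44.2 and 39.7 FPKM with saline and 30.1, 28.1, 33.4, 33.6 and 30.9 with StcE. The highest StcE sample (33.6) was just under the lowest saline sample (34.4), and saline replicate 4 was the highest of all. The mean fell from 38.4 ± 3.73 to 31.2 ± 2.32 FPKM, to 81.2% of the saline mean, a log2 difference of -0.29 (standard error 0.0655, 95% interval -0.43 to -0.15, limma adjusted p = 0.0165). The exact two-sided permutation test of *Dll4* alone gave p = 0.00794, the smallest that 5 against 5 samples allow. The adjusted p was 0.0602 when no filter on low genes was applied and 0.0502 under 1 form of upper quartile scaling, at a difference of -0.24, and 5.56% of the exon length overlaps a gene on the other strand.

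*Jag1* (chromosome 2, 137081456 to 137116644, reverse strand), the more abundant Jagged ligand in these cells, had 47.9, 46.8, 48.3, 45.8 and 42.9 FPKM with saline and 41.8, 47.5, 42.8, 46.8 and 47.5 with StcE. The groups overlapped over nearly their whole range. The means were 46.3 ± 2.13 and 45.3 ± 2.77 FPKM, with a log2 difference of -0.03 (95% interval -0.13 to 0.06, limma adjusted p = 0.666).

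*Jag2* (chromosome 12, 112907819 to 112929776, reverse strand), the other Jagged ligand, had 4.25, 3.88, 4.41, 3.49 and 3.98 FPKM with saline and 2.58, 3.04, 2.82, 2.88 and 3.18 with StcE, from 423 to 901 fragments per sample. All 5 StcE samples lay under the lowest saline sample. The mean fell from 4.0 ± 0.359 to 2.90 ± 0.226 FPKM, to 72.5% of the saline mean, a log2 difference of -0.36 (standard error 0.0567, 95% interval -0.48 to -0.23, limma adjusted p = 0.00231). Without a pseudocount the log2 ratio of the means was -0.46.

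A Delta-like ligand outside the 10 genes moved the other way. *Dll1*, a ligand of the same receptors, had 20.8, 18.8, 19.6, 22.1 and 19.3 FPKM with saline and 24.7, 24.0, 25.3, 25.2 and 25.6 with StcE, so that every StcE sample was above every saline sample. Its mean rose from 20.1 ± 1.32 to 25.0 ± 0.620 FPKM, a log2 difference of 0.30 (limma adjusted p = 0.000747), and the call held in 22 of 22 alternative settings. The ratio of *Dll4* to *Dll1* within a sample was 1.75 to 2.05 with saline (mean 1.91 ± 0.128) and 1.17 to 1.34 with StcE (mean 1.25 ± 0.0743). The ratio of *Jag2* to *Jag1* was 0.0761 to 0.0926 with saline and 0.0615 to 0.0669 with StcE. These ratios were chosen after the values were seen and carry no test. In both of them the 5 StcE samples lay under the 5 saline samples.

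**Figure D2:**
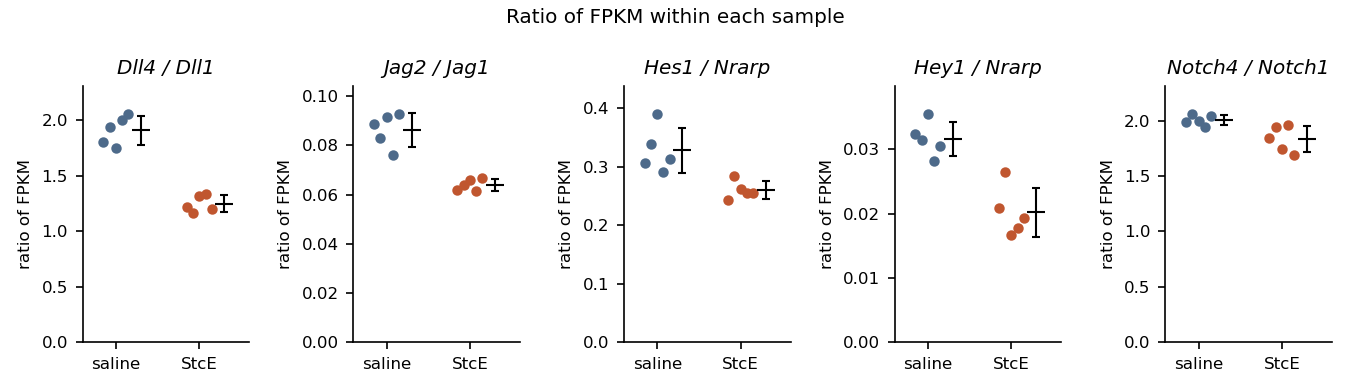
Ratio of the FPKM of a pair of genes within each sample (vertical axes from 0), for the 5 saline samples (blue) and the 5 StcE samples (orange), with the mean and SD beside the points. The pairs were chosen after the values were seen. The StcE samples are lower than every saline sample for *Dll4* to *Dll1*, *Jag2* to *Jag1*, *Hes1* to *Nrarp* and *Hey1* to *Nrarp*, while the groups overlap for *Notch4* to *Notch1*.

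*Rbpj* (chromosome 5, 53466152 to 53657362, forward strand), the DNA-binding partner of the cleaved receptor and, without it, a repressor of the same targets, was the gene of the 10 with a higher call. It had 6.63, 6.55, 6.24, 6.77 and 6.30 FPKM with saline and 6.68, 7.39, 7.15, 7.47 and 7.64 with StcE. StcE replicate 1 lay inside the saline range, and the other 4 StcE samples lay above it. The mean rose from 6.50 ± 0.225 to 7.27 ± 0.374 FPKM, to 111.8% of the saline mean, a log2 difference of 0.14 (standard error 0.0365, 95% interval 0.06 to 0.22, limma adjusted p = 0.0298). The call was kept when saline replicate 4 or StcE replicate 1 was left out and lost when any of the other 8 samples was, with adjusted p from 0.00994 to 0.0687 and a difference from 0.12 to 0.17.

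Of the targets, *Hes1* and *Hey1* fell and *Nrarp* did not pass the threshold. *Hes1* (chromosome 16, 30064384 to 30067796, forward strand), a repressor of transcription and the best known direct target, had 16.0, 15.3, 17.4, 15.0 and 16.5 FPKM with saline and 12.1, 13.1, 12.5, 13.1 and 12.3 with StcE. The StcE samples were tightly grouped and all under the saline samples. The mean was 78.7% of the saline mean, with a log2 difference of -0.32 (standard error 0.0399, 95% interval -0.41 to -0.23, limma adjusted p = 0.000459).

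*Hey1* (chromosome 3, 8663359 to 8667256, reverse strand), a relative of the HES factors with a role in arterial endothelium, had 1.69, 1.43, 1.59, 1.46 and 1.60 FPKM with saline and 1.04, 1.22, 0.795, 0.909 and 0.935 with StcE. All StcE samples were under the saline samples. The mean fell from 1.55 ± 0.110 to 0.980 ± 0.160 FPKM, to 63.1% of the saline mean, which was the lowest share among the 10 genes. The log2 difference was -0.37 (standard error 0.0616, 95% interval -0.50 to -0.23, limma adjusted p = 0.00304). Without a pseudocount the log2 ratio of the mean levels was -0.66. Only 77 to 168 fragments per sample lay behind these values, the fewest of the 10 genes.

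*Nrarp* (chromosome 2, 25180758 to 25183339, forward strand), a target whose protein limits Notch signalling in return, had 52.2, 45.2, 44.8, 51.6 and 52.5 FPKM with saline and 49.9, 46.0, 47.7, 51.3 and 48.4 with StcE. The StcE range lay wholly inside the saline range. The means were 49.3 ± 3.91 and 48.7 ± 2.01 FPKM, with a log2 difference of -0.01 (standard error 0.0505, 95% interval -0.13 to 0.10, limma adjusted p = 0.886). The lower bound of this interval excludes a fall of the size fitted for *Hes1* or *Hey1* on the same scale. On the other strand *Gm38287* overlaps 79.4% of the exon length of *Nrarp*, and whether fragments were counted by strand is not given in the sources used here. The ratio of *Hes1* to *Nrarp* within a sample was 0.291 to 0.389 with saline and 0.242 to 0.284 with StcE. That of *Hey1* to *Nrarp* was 0.0282 to 0.0354 and 0.0167 to 0.0265. These ratios too were chosen after the values were seen and carry no test.

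**Figure D3:**
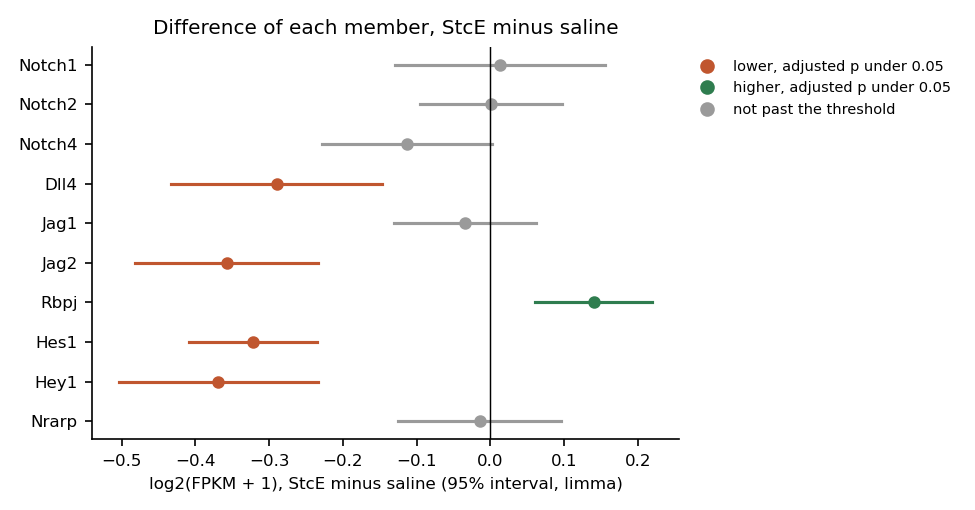
Difference in log2(FPKM + 1), StcE minus saline, of the 10 Notch pathway genes (horizontal axis) with its 95% interval from limma, coloured by call. *Hey1*, *Jag2*, *Hes1* and *Dll4* lie between -0.37 and -0.29 with intervals under 0, *Rbpj* lies at 0.14 with an interval above 0, and the intervals of the other 5 reach 0.

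The promoter letters of 4 of these genes are shown: the ligands that fell (*Dll4* and *Jag2*), the factor that rose (*Rbpj*) and the target that did not pass the threshold (*Nrarp*). Each is the 250 bases before the annotated start from RefSeq on GRCm38.p6, read 5′ to 3′ on the strand of the gene, and 8 of the 10 genes matched an entry in that table, all but *Hes1* and *Hey1*. *Dll4* is from chr2:119325534-119325783 (forward), *Jag2* from chr12:112929496-112929745 (reverse), *Rbpj*, at the first of its 2 listed starts, from chr5:53590096-53590345 (forward) and *Nrarp* from chr2:25180508-25180757 (forward). Capitals mark matches, on either strand, to the core RBPJ motif TGGGAA, the longer GTGGGAA that contains it, the N box CACNAG and the E box CACGTG, the last 2 being motifs that HES and HEY factors are known to bind.
Dll4: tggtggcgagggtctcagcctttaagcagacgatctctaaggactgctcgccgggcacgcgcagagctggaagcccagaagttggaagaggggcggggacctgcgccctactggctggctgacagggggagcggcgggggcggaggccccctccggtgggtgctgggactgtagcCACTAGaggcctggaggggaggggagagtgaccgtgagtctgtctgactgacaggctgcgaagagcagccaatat
Jag2: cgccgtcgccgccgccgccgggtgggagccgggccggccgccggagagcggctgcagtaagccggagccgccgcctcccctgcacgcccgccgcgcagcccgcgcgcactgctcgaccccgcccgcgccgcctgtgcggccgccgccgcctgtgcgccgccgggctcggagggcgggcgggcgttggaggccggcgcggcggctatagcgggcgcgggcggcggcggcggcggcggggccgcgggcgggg
Rbpj: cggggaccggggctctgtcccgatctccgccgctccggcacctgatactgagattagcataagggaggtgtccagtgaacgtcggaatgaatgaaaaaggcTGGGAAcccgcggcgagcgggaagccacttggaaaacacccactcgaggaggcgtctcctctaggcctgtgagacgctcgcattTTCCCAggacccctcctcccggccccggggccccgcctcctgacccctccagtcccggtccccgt
Nrarp: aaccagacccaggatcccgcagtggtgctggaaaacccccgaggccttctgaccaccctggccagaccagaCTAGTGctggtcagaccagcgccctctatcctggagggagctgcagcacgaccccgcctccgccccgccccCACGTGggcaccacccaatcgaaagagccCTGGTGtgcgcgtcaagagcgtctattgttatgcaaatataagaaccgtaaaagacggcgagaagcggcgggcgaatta

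The *Rbpj* window held TGGGAA once on each strand, beginning 149 and 65 bases before the start. The *Dll4* window held 1 N box, 75 bases before the start, and the *Nrarp* window held 2 N boxes, 179 and 79 bases before it, and 1 E box at 108. The *Jag2* window, of which 87.2% was G or C, held none of these letters. Over 32851 promoters of the same length, TGGGAA was present in 21.6%, GTGGGAA in 5.42%, CACNAG in 36.7% and CACGTG in 6.02%. They describe letters in a window and are not evidence of a site. The *Rbpj* and *Jag2* windows lie inside the gene positions given above, which follow GENCODE, whereas the starts used for the windows follow RefSeq.

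A further 61 genes of the pathway, listed by role, were set beside the 10. Of these, 5 had no row and 44 passed the filter. StcE lowered 8 and raised 4, and 32 did not pass the threshold, beside 6.41% of all tested genes called lower and 5.52% higher. The median log2 difference of the 44 was -0.05, with 31 of them below 0. The differences were small. Upper quartile scaling over the genes above 0 in each sample moved the median of all genes by 0.04. Under it 0 of the 44 were called lower. Over a common set of genes, a form added after seeing the data, the same scaling left that median at 0.0052. Of the 8 lower genes, *Kat2a* alone then lost its call.

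Among the genes that cut the receptor, *Adam10*, the sheddase that makes the first cut on the membrane, had 67.5, 66.2, 68.1, 67.3 and 63.7 FPKM with saline and 57.7, 62.2, 58.3, 62.6 and 59.8 with StcE. The groups did not overlap. Its mean fell from 66.6 ± 1.75 to 60.1 ± 2.20 FPKM, to 90.3% of the saline mean, a log2 difference of -0.14 (limma adjusted p = 0.00852). *Furin*, the convertase that processes the receptor on its way to the surface, fell from 21.2 ± 1.13 to 18.1 ± 1.00 FPKM (log2 difference -0.22, limma adjusted p = 0.00881). *Aph1a*, a subunit of gamma-secretase, fell from 30.1 ± 0.548 to 28.2 ± 0.800 FPKM (log2 difference -0.09, limma adjusted p = 0.0334), a call that was lost in 7 of the 10 fits that left out a sample. In this group of 10 genes, 9 were tested, 3 were called lower and 0 higher, beside 6.41% and 5.52% of all tested genes, and 8 were below 0.

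Of the 6 enzymes that put sugars on the EGF repeats of the receptors, 1 was called lower and 0 higher. Among all tested genes 6.41% were called lower and 5.52% higher. All 6 were below 0, with a median of -0.07, but the other 5 did not pass the threshold. *Eogt*, which adds O-linked N-acetylglucosamine, fell from 30.7 ± 0.837 to 27.0 ± 0.536 FPKM (log2 difference -0.18, limma adjusted p = 0.000809). It was called in 21 of 22 alternative settings, all but upper quartile scaling over the genes above 0 in each sample (limma adjusted p = 0.0507). *Mfng*, a Fringe enzyme and the most highly expressed of this group, was at 40.7 and 39.2 FPKM (log2 difference -0.05, limma adjusted p = 0.311). Of the ubiquitin ligases that act on ligands, *Mib2* fell from 2.61 ± 0.131 to 2.27 ± 0.0843 FPKM (log2 difference -0.14, limma adjusted p = 0.0335, lost in 6 of the 10 fits that left out a sample), whereas *Mib1*, the more abundant, was at 19.1 and 18.6 (log2 difference -0.04, limma adjusted p = 0.557).

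In the nucleus, *Maml2*, a Mastermind-like coactivator of the RBPJ complex, fell from 7.03 ± 0.238 to 6.06 ± 0.447 FPKM, a log2 difference of -0.19 (limma adjusted p = 0.0178). *Kat2a*, a histone acetyltransferase, went from 37.1 ± 0.728 to 34.8 ± 1.17 FPKM (log2 difference -0.09, limma adjusted p = 0.0459). *Cir1*, a corepressor that binds RBPJ, went from 2.14 ± 0.174 to 2.52 ± 0.157 FPKM (log2 difference 0.17, limma adjusted p = 0.0488). The calls of *Kat2a* and *Cir1* were each kept in no more than 2 of the 10 fits that left out a sample, with overlapping groups. The other 8 tested corepressors did not pass, among them *Ctbp1*, the most highly expressed of that list, at 72.0 and 70.2 FPKM.

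Of the genes that turn the receptor over, *Nedd4*, a ubiquitin ligase, fell from 162.3 ± 3.39 to 143.5 ± 5.28 FPKM, to 88.4% of the saline mean (log2 difference -0.18, limma adjusted p = 0.00227). *Dtx2*, a Deltex protein, rose from 3.17 ± 0.125 to 3.50 ± 0.0559 FPKM (log2 difference 0.11, limma adjusted p = 0.0432), a call kept in 1 of the 10 fits that left out a sample. *Egfl7*, a secreted endothelial protein that can bind Notch receptors, had 166.3 ± 5.06 and 188.2 ± 14.5 FPKM (log2 difference 0.17, limma adjusted p = 0.0378), with overlapping groups and a call likewise kept in 1 of those 10 fits. Among other HES and HEY factors, 4 had no row and *Hes6* alone was tested, at 7.73 ± 0.784 and 8.62 ± 0.521 FPKM (log2 difference 0.14, limma adjusted p = 0.157).

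**Figure D4:**
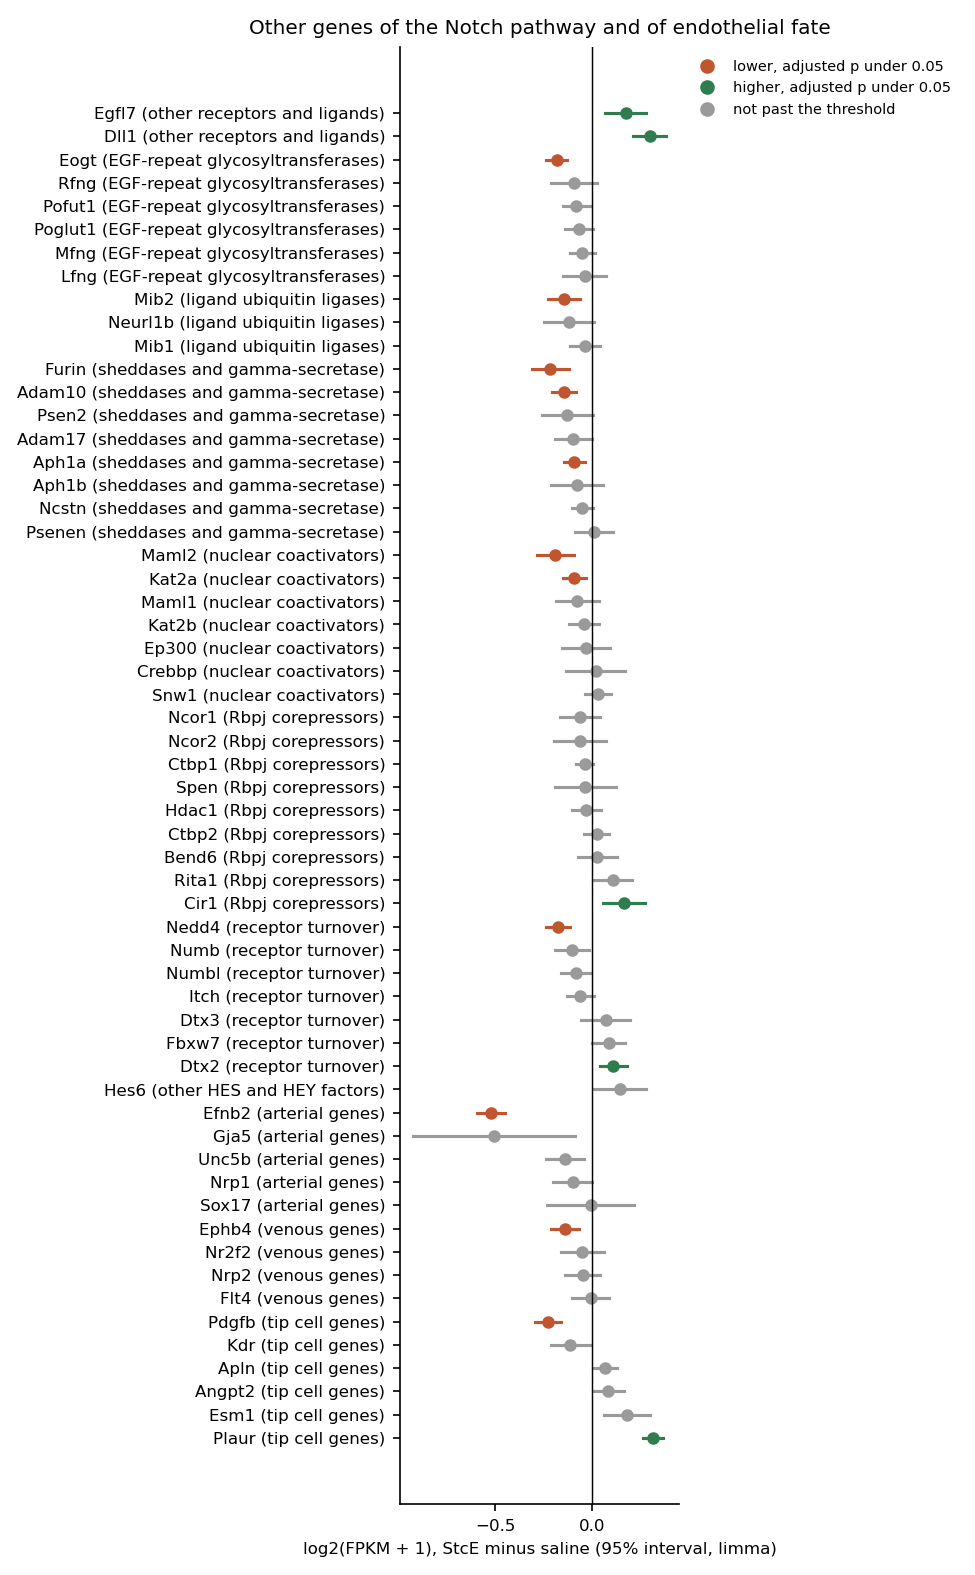
Difference in log2(FPKM + 1), StcE minus saline, with its 95% interval from limma, for the tested genes of the other Notch pathway lists (except 1) and of the arterial, venous and tip cell lists, coloured by call. Most intervals reach 0, and *Efnb2* at -0.52, *Dll1* at 0.30 and *Plaur* at 0.32 lie farthest out among the called genes.

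Genes of arterial, venous and tip cell identity were read in the same way, since Notch signalling is known to bear on these states. Of 19 genes, 15 were tested, 3 were called lower and 1 higher, beside 6.41% and 5.52% of all tested genes, and their median log2 difference was -0.05. *Efnb2*, the arterial ephrin ligand and a known Notch target, had 25.9, 23.8, 25.7, 24.2 and 23.7 FPKM with saline and 16.2, 17.5, 16.4, 16.8 and 17.4 with StcE. The groups lay far apart, with means of 24.6 ± 1.06 and 16.9 ± 0.575 FPKM, a fall to 68.4% of the saline mean (log2 difference -0.52, limma adjusted p = 1.8e-06). All 5 tested arterial genes were below 0, as were all 4 tested venous genes and 7 of the 8 endothelial markers. Signs were counted however small the difference. *Sox17* was at -0.0064 (limma adjusted p = 0.978) and the marker *Emcn* at -0.0055 (limma adjusted p = 0.926). Of the 5 arterial genes 1 was called. *Gja5*, an arterial connexin, varied widely, at 7.0 ± 2.09 and 4.57 ± 1.33 FPKM, and did not pass (log2 difference -0.51, limma adjusted p = 0.112).

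*Ephb4*, the venous receptor for EFNB2, fell from 86.5 ± 3.37 to 78.5 ± 3.11 FPKM (log2 difference -0.14, limma adjusted p = 0.0219), a call lost without saline replicate 1 or StcE replicate 3. The tip cell genes were split. *Pdgfb*, the growth factor by which tip cells recruit pericytes, fell from 36.6 ± 1.20 to 31.1 ± 1.17 FPKM (log2 difference -0.23, limma adjusted p = 0.000895), and *Plaur*, the urokinase receptor, rose from 93.0 ± 2.72 to 115.9 ± 2.04 FPKM (log2 difference 0.32, limma adjusted p = 9.8e-06). *Apln*, the most abundant of them, was at 831.6 ± 18.5 and 872.3 ± 29.6 FPKM and did not pass (log2 difference 0.07, limma adjusted p = 0.136).

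Several general endothelial markers moved by amounts that overlap those of some of these genes, and others did not move. *Tek* (17.9 ± 0.751 to 15.1 ± 1.12 FPKM, log2 difference -0.24), *Tie1* (134.8 ± 5.15 to 119.0 ± 2.99, -0.18), *Erg* (125.1 ± 1.85 to 115.1 ± 6.05, -0.12) and *Pecam1* (301.9 ± 10.4 to 279.2 ± 10.5, -0.11) were called lower, with limma adjusted p of 0.00857, 0.00295, 0.0356 and 0.0425. Under upper quartile scaling over the genes above 0 in each sample none of the 4 was called. The limma adjusted p were then 0.0615, 0.0877, 0.357 and 0.389 in the same order. Over a common set of genes, *Tek*, *Tie1* and *Erg* kept their calls under this scaling and *Pecam1* did not. *Erg* and *Pecam1* each kept the call in 2 of the 10 fits that left out a sample. *Cdh5*, the most highly expressed marker, was at 509.1 ± 25.9 and 462.7 ± 22.3 FPKM (log2 difference -0.14, limma adjusted p = 0.0515). *Kdr* was at 88.1 and 81.6 FPKM (log2 difference -0.11, limma adjusted p = 0.138). *Cldn5* was at 309.6 ± 19.8 and 315.4 ± 27.5 FPKM (log2 difference 0.02, limma adjusted p = 0.842). *Emcn* was at 105.1 ± 3.51 and 104.7 ± 2.94 FPKM (log2 difference -0.0055, limma adjusted p = 0.926). By fitted value alone, *Dll4*, *Jag2*, *Hes1* and *Hey1* had larger differences than each of these markers. Those of *Adam10*, *Maml2* and *Nedd4* lay within the range of the markers. The limma interval of *Tek* (-0.34 to -0.13) overlapped that of *Dll4* (-0.43 to -0.15). It also overlapped the intervals of *Jag2*, *Hes1* and *Hey1*. Whether any of these genes differed from a marker was not tested.

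For each called gene of the 10, the tested genes with the most similar pattern were found by the root mean square difference of log2 profiles over the 10 samples. The nearest to *Dll4* were *Abcg1* (0.0769), *Ksr1* (0.0919) and *Sstr2* (0.0939), to *Jag2* they were *Sertad4* (0.0614), *Epas1* (0.0617) and *Hes1* (0.0663), and to *Rbpj* they were *Sema6d* (0.0261), *Cep170* (0.0308) and *Pik3cg* (0.0377). *Hes1* was nearest to *Rab3d* (0.0508), *Acvrl1* (0.0554) and *Selenon* (0.0620), and *Hey1* to *Timp3* (0.0691), *Hoxd9* (0.0711) and *Acvrl1* (0.0759). *Hes1* was among the nearest profiles of *Jag2*, and *Acvrl1*, a receptor of the TGFβ family, was near both *Hes1* and *Hey1*. Each profile was centred on its own saline mean, so genes with a similar StcE difference lie close by this measure. Such nearness says nothing of shared control.

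The 5 calls differed in how firmly they held. *Hes1* and *Jag2* passed the threshold in 22 of 22 alternative settings, with limma adjusted p of at most 0.0172 and 0.0206. *Hey1* passed in 21 and *Dll4* in 19, both in every fit that left out a sample, while *Rbpj* passed in 11. The direction of all 5 was the same in each of the 22 settings.

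**Figure D5:**
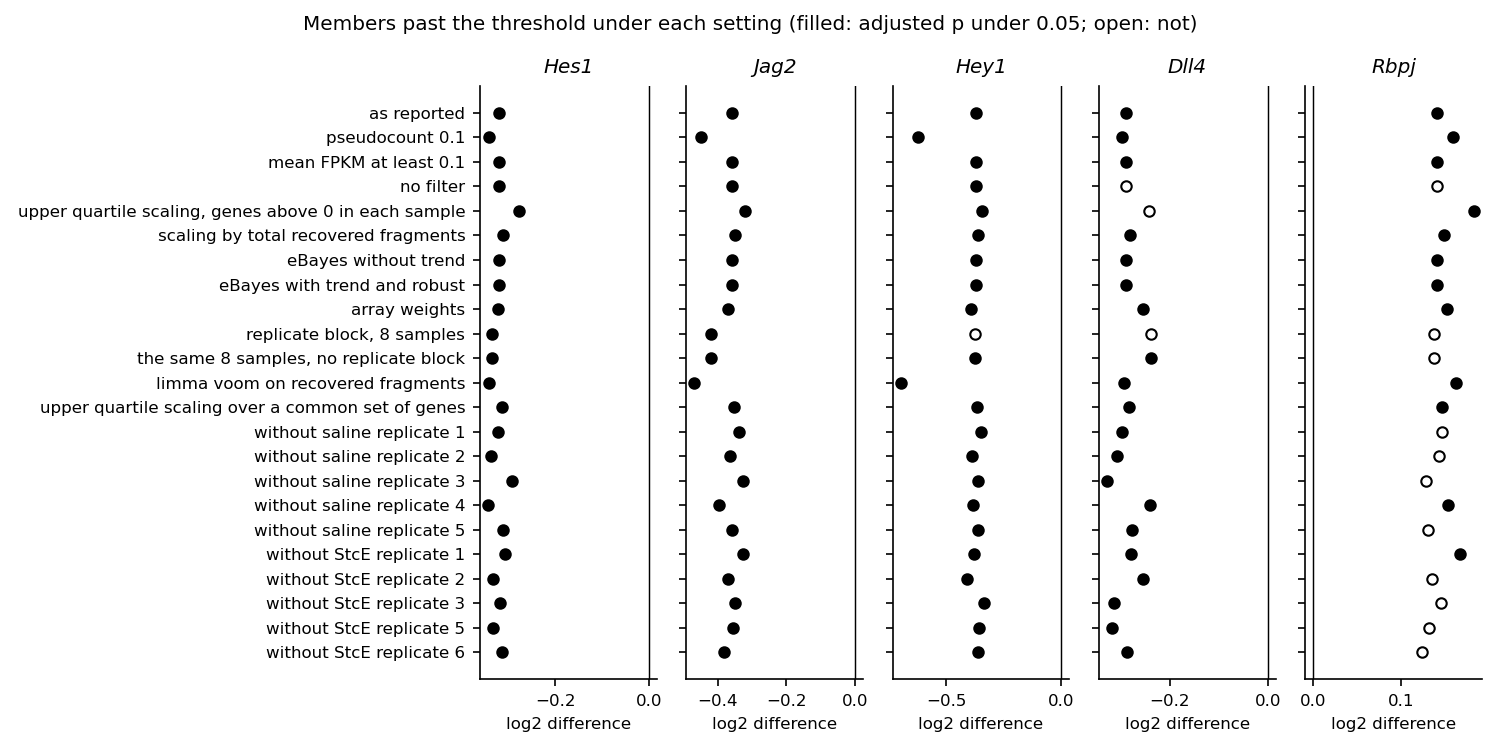
Difference in log2 expression, StcE minus saline (horizontal axes), of the 5 called Notch pathway genes as reported and under each of 22 alternative settings (vertical axis), filled where the limma adjusted p was under 0.05 and open where it was not. *Hes1* and *Jag2* are filled throughout, *Hey1* is open once, *Dll4* is open in 3 settings, and *Rbpj* is open in 11.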

How the data were processed

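Polyadenylated RNA of 10 bEnd.3 samples had been sequenced. Per the labels and the study's methods, directional libraries were read in pairs and aligned to GRCm38. The submitters' processing notes name HISAT2 2.0.5, featureCounts 1.5.0-p3 and DESeq2 1.32.0. The annotation release and the strand setting of the counting are not given in the sources used here. The values deposited by the authors are FPKM, in 1 column a sample, on 27024 named and 22874 empty rows. Multiplied by GENCODE vM21 exon length, 96.6% of values of the 26724 matched genes were whole fragments (within 0.05). Intervals from fragments cover counting error only. The chi-square per degree of freedom between samples of 1 group was 3.24 to 9.15, beyond counting error.

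The 11062 genes whose mean FPKM reached 1 were compared in limma 3.58.1 (R 4.3.3; lmFit and trended eBayes) as log2(FPKM + 1), with Benjamini-Hochberg adjustment over all of them. The exact two-sided permutation tests used 252 arrangements (scipy 1.17.1). The procedure was tested on simulated data. Named were the 10 genes, every called gene and the most highly expressed gene of each list, and the 3 nearest profiles of each called gene. *Gja5*, *Notch3*, *Sox17*, *Kdr*, *Cldn5* and *Emcn* are outside that rule and were added with their values in view. The result of 1 listed gene is not reported here. The genes and lists were chosen with earlier results of these data known. The alternatives were a pseudocount of 0.1, a minimum mean of 0.1 or none, scaling by the upper quartile or by total fragments, eBayes without trend or robust, array weights, a block for the replicate number over 8 samples, those samples unblocked, voom on recovered fragments, and each sample left out. Upper quartile scaling over a common set of genes was added after seeing the data.

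Replicate numbers 1, 2, 3 and 5 occur in both groups. The reported fit was planned without a block for them. Samples with the same number did not deviate together (correlations from -0.0966 to 0.0538).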

Additional observations from a re-analysis of the deposited data

Results flagged for a closer look

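In 2 of the 60 groups of 5 samples examined, 1 sample stood apart from the other 4 by Dixon's criterion, where chance gives about 3. *Eogt* was at 27.93 FPKM in StcE replicate 6 and at 26.7 to 26.78 in the other StcE samples. *Tie1* was at 125.9 FPKM in saline replicate 5 and at 135.4 to 139 in the other saline samples. None of the 10 Notch pathway genes was among them.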

How the results depend on the processing

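The directions of *Notch4*, *Dll4*, *Jag2*, *Rbpj*, *Hes1* and *Hey1* were the same in all 22 alternatives. The cause of the changes given here was not tested. Without a filter, more genes entered the adjustment and *Dll4* (-0.29) and *Rbpj* (0.14) lost their calls, leaving 0 of the 10 genes called higher and, of the other pathway genes, 4 lower and 1 higher; that last count was also 1 at a minimum mean of 0.1. Upper quartile scaling over the genes above 0 in each sample moved the median of all genes to 0.0414 and the share of lower calls from 53.7% to 18.2%. *Dll4* was then at -0.24 without a call, *Jag1* turned to 0.013 and *Nrarp* to 0.033, and 0 other pathway genes were called lower. Over a common set of genes, the same scaling put that median at 0.0052 and that share at 48.2%, and *Dll4* kept its call. In the arterial, venous and tip cell lists 2 genes were called higher under both forms of upper quartile scaling, scaling by total fragments, robust eBayes and voom. There voom called 5 lower. *Notch2* changed sign with array weights (-0.0036) and voom (-0.0052). Over 8 samples with the replicate number as a block, *Notch2* was at -0.011 and *Nrarp* at 0.0044, and *Dll4* (-0.24), *Rbpj* (0.14) and *Hey1* (-0.38) lost their calls, leaving 2 of the 10 genes lower and 0 higher, 1 other pathway gene lower and 1 higher, and 1 lower in the arterial, venous and tip cell lists. The block called 165 genes lower and 187 higher among all tested, against 452 and 433 in the same samples without it, and 0 of 4 samples correlated best with its own number. Without the block, those samples gave *Notch2* at -0.011, *Nrarp* at 0.0044, *Rbpj* at 0.14 without a call, 0 of the 10 genes higher, and 5 other pathway genes lower and 1 higher. Over all tested genes, 409 lower and 392 higher were called without a filter, 183 and 823 under the first upper quartile scaling, and 709 and 611 as reported.

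With each sample left out, calls among the 10 genes ranged from 4 to 4 lower and from 0 to 1 higher, among the other pathway genes from 5 to 8 and from 1 to 3, and in the arterial, venous and tip cell lists from 2 to 5 and from 1 to 2. Over all tested genes they ranged from 409 to 667 lower and 384 to 590 higher. The log2 differences ranged from -0.029 to 0.057 for *Notch1*, -0.020 to 0.016 for *Notch2*, -0.14 to -0.08 for *Notch4*, -0.33 to -0.24 for *Dll4*, -0.06 to -0.0061 for *Jag1*, -0.40 to -0.33 for *Jag2*, 0.12 to 0.17 for *Rbpj*, -0.34 to -0.29 for *Hes1*, -0.41 to -0.33 for *Hey1* and -0.047 to 0.0092 for *Nrarp*. Depth limits *Hey1* and *Notch2* most.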
